A study of Mus musculus with 11 samples.

Results

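The myosin heavy and light chain genes were described in sorted retinal vascular endothelial cells of the oxygen-induced retinopathy (OIR) model, in which pups are kept in high oxygen and vessels then grow abnormally into the hypoxic retina. The members were the protein-coding genes whose symbols begin with Myh, Myl or Myo followed by a number, with a heavy chain gene left out that is not analysed here. There were 49 of them among the 55359 counted genes, namely 13 Myh genes, 11 Myl genes and 25 Myo genes. C57BL/6 pups were injected into the vitreous at P12 with 0.5 µL of oncostatin M (OSM), a cytokine of the IL-6 family, at 100 ng/µL, or with 0.5 µL of PBS, and CD31+/CD45- cells were isolated by flow cytometry at P17. OSM was given to 5 mice (mice 1, 2, 5, 6 and 9) and PBS to 6 mice (mice 3, 4, 7, 8, 10 and 11), all of which went through OIR, so no group without OIR entered the comparison. Both retinas of a mouse were pooled into 1 sample. The methods describe PBS injections in contralateral eyes, whereas each label names a single treatment for the mouse, and the labels were followed. Mice 1 to 4 formed litter 1, mice 5 to 8 litter 2 and mice 9 to 11 litter 3, and each litter was 1 OIR run, so that litter and run cannot be told apart. The count columns assigned to mice 10 and 11 are headed M11_PBS and M12_PBS, so their numbers here follow the sample titles and not the headers, and both are PBS in either.

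Myosins are motors that bind actin filaments and move along them by hydrolysing ATP. Conventional, or class II, myosins are built from a pair of heavy chains, each with a motor head and a long coiled-coil tail, and each head carries an essential and a regulatory light chain. Their tails assemble into filaments that pull on actin: the sarcomeric isoforms drive striated muscle, and the nonmuscle II isoforms drive cell contraction, cytokinesis and tension at junctions in other cells, endothelium included. Phosphorylation of the regulatory light chain by light chain kinase and related kinases switches nonmuscle and smooth muscle myosin on. Unconventional myosins, the Myo genes, mostly do not form such filaments, and instead link membranes, vesicles or signaling proteins to actin.

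The regulatory light chains of nonmuscle and smooth muscle myosin are encoded by Myl9, Myl12a and Myl12b. Parts of their coding sequences are shown because their similarity bears on how well their counts can be told apart. The stretches are 90 coding bases of the first coding exon (GRCm39, GENCODE vM39 transcripts, read 5′ to 3′ on the coding strand), and the capitals mark the adjacent threonine and serine codons whose residues light chain kinase phosphorylates.
Myl9: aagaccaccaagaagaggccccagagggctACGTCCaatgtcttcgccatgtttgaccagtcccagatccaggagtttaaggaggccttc
Myl12a: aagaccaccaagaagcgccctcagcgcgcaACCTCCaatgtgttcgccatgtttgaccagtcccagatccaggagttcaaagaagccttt
Myl12b: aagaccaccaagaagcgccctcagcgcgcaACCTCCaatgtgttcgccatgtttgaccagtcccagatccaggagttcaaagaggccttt
The Myl9 stretch lies at chr2:156620489-156620578 on the plus strand, the Myl12a stretch at chr17:71303762-71303851 and the Myl12b stretch at chr17:71284113-71284202, both on the minus strand. Over these 90 bases Myl12a and Myl12b differed at 1 position and Myl9 and Myl12a at 12. Over the whole coding sequence of 516 bases, Myl12a and Myl12b were 96.5% identical, with an identical run of 102 bases, and Myl9 was 85.7% identical to Myl12a and 86.4% identical to Myl12b, with no identical run of more than 35 bases. The canonical transcripts were cut into windows of 50 bases, which were looked for elsewhere in the genome and in transcripts of other genes. A match was found for 22.0% of windows for Myl12a, 33.6% for Myl12b and 8.98% for Myl9 (793, 731 and 120 windows). Within the coding sequences, Myl12a and Myl12b shared 174 such windows, and Myl9 shared 0 with either. Exons of other annotated genes overlapped 18.7%, 33.2% and 12.2% of the exon bases of Myl12a, Myl12b and Myl9. Reads that fit several genes are left out by the counting, so the levels of Myl12a and Myl12b can be too low. The share of windows with a match was 74.7% for Myl6 and 36.0% for Myl6b, against 1.12% for Myh9 and 4.50% for Myh10. Among the sarcomeric heavy chains it ran from 1.45% for Myh7b to 41.1% for Myh7, so the levels of some of these can be too low as well.

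The libraries held 26697990 to 56033479 reads counted on genes (median 32500202), and the members took 0.360% to 0.462% of them. Endothelial markers (Pecam1, Cdh5, Cldn5 and 7 others) summed to 14400 to 19013 CPM (counts scaled to library size) in every mouse, against 411 to 2187 CPM for 11 mural markers and 0.286 to 18.9 CPM for 10 leukocyte markers. Mouse 3 (PBS) stood apart with 20898 detected genes, where the other libraries had 16635 to 17697, and with reads on 43 members, where the others had 21 to 28. Mouse 5 (OSM) had the highest sum of photoreceptor markers, at 5017 CPM against 177 to 1685 CPM in the others. In bulk RNA, fewer cells of a type and less RNA per cell cannot be told apart.

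Reads were found for 46 of the 49 members. No read fell on Myl2, the ventricular regulatory light chain, on Myl10 or on Myo3b, and 5 members had reads in mouse 3 alone. Of the 49 members, 22 passed the filter on low counts and were tested, and 27 did not. To set genes beside each other, levels are given per length, as the read count divided by the annotated exon length in kilobases and by the library size (RPKM). The values depend on that length, because the union of exons is longer than most single transcripts.

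**Figure D1:**
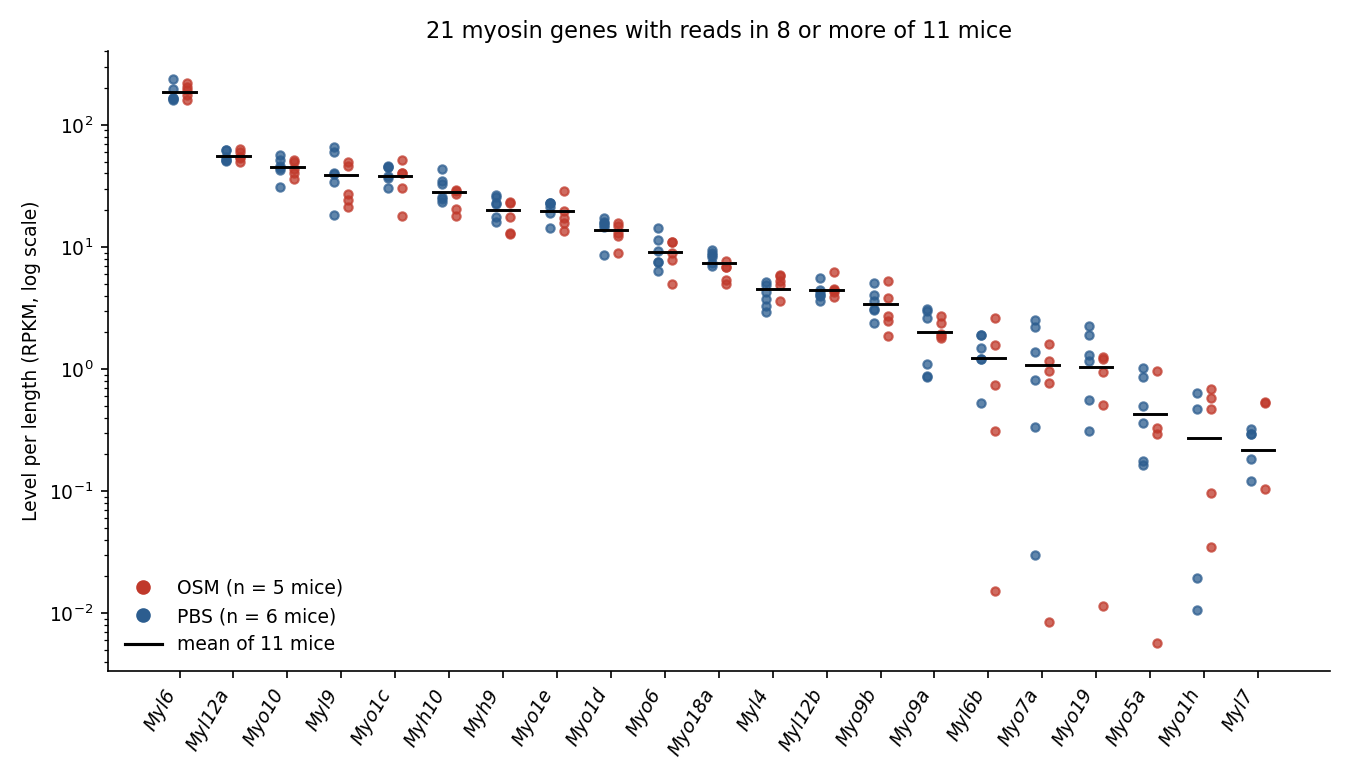
Level per length (RPKM, log axis) of 21 myosin genes with reads in at least 8 of the 11 mice, in order of their mean; each point is 1 mouse, red for OSM and blue for PBS, the black bar is the mean of all mice, and mice without reads are not drawn. Myl6 lies highest at a mean of 186 RPKM, and the points spread widely from Myl6b on, whose mean is 1.23 RPKM.

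The nonmuscle II heavy chains were carried by Myh9 and Myh10, which encode the heavy chains of nonmuscle myosin IIA and IIB. Myh10 (chr11:68582385-68707470, plus strand) had a level of 28.1 ± 7.14 RPKM and Myh9 (chr15:77644785-77726381, minus strand) one of 20.1 ± 4.85 RPKM (SD, n = 11 mice). The level of Myh10 was above that of Myh9 in 10 of 11 mice, all but mouse 10. Myh9 made up 41.7% ± 4.02 (SD, n = 11) of the summed nonmuscle II level per length. Myh14, the heavy chain of nonmuscle myosin IIC, had 16 reads in mouse 2, 9 in mouse 9 and none in the other mice.

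Among the light chains of these myosins, Myl6, the essential light chain, had the highest level of all members, at 186 ± 26.5 RPKM (SD, n = 11). The regulatory light chain Myl12a followed with 55.7 ± 5.34 RPKM, Myl9 with 38.8 ± 15.7 RPKM and Myl12b with 4.48 ± 0.784 RPKM. Myl12a had 9.85 to 17.4 times as many reads as Myl12b in a mouse, although their coding sequences are nearly the same. The coefficient of variation over mice of the normalized count was 9.59% for Myl12a, the most even of the regulatory chains, and 40.4% for Myl9, the most variable of them. Myl6b, a second essential light chain, reached 1.23 ± 0.780 RPKM. With the length of the canonical transcript instead of the exon union, the mean levels were 866 RPKM for Myl6, 144 RPKM for Myl12a, 64.2 RPKM for Myl9, 41.5 RPKM for Myh10 and 40.2 RPKM for Myh9. The Myh10 and Myh9 levels were then nearly equal.

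Sarcomeric heavy chains were almost absent from the sorted cells. Their 10 genes had 158 reads in all 11 libraries together, against 233403 reads for the nonmuscle II heavy chains, or 0.0677% of both. Reads that fit several sarcomeric genes are left out by the counting, so this share can be too low. Mice 6, 10 and 11 had none, where 0 of 12279, 0 of 22741 and 0 of 28762 reads allow a share of up to 0.0244%, 0.0132% and 0.0104% (3 reads per library, counting error only). Mouse 8 had 2 of 19402 reads (0.0103%, exact 95% binomial interval 0.00125% to 0.0372%). In the other 7 mice the share was between 0.0257% and 0.264%, with mouse 3 the highest (50 of 18954 reads, interval 0.196% to 0.348%). Mouse 9, the deepest library, followed with 51 of 33766 reads, all of them on Myh7b, an atypical gene of this group. Per length, the nonmuscle II sum stood above the sarcomeric sum by 7.82 to 11.1 on the log2 scale in these 7 mice.

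Mouse 3 had reads on each of the 10 sarcomeric heavy chain genes, among them 10 on Myh8 (the perinatal isoform), 8 on Myh13 (the isoform of extraocular muscle) and 7 on Myh3 (the embryonic isoform), whereas no other mouse had reads on more than 3. Without mouse 3, 108 sarcomeric heavy chain reads on 8 genes were left. Most of them were on Myh7b, with 3, 11, 13 and 51 reads in mice 1, 5, 7 and 9. In mice 5 and 7, as in mouse 9, Myh7b was the only sarcomeric heavy chain gene read. Mouse 3 also had the most reads of the skeletal and cardiac actins, with 295 for Acta1 (1 to 24 in the others) and 76 for Actc1 (0 to 11 in the others), and 29 reads of the muscle creatine kinase Ckm, of which mouse 11 had 73. The 13 striated muscle markers summed to 27.7 CPM in mouse 3 and to 6.79 to 19.4 CPM in the others, with 9 of 13 detected in any mouse and the troponins Tnnt3, Tnni2, Tnnc2 and Tnni3 at 0 in all. The slow muscle troponins Tnnt1 and Tnni1 were read in every mouse (27 to 294 and 11 to 274 reads) and were not highest in mouse 3. Neb, another gene of this list, was highest in mice 10 and 11, which had no sarcomeric heavy chain reads. Its normalized counts were 121 and 146 there, 45.4 in mouse 3 and 0 to 23.8 in the others. The part of muscle cells in the sarcomeric reads was not tested.

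The sarcomeric light chains differed from the heavy chains in that Myl4 was read in every mouse. Myl4 (chr11:104440903-104486603, plus strand), the essential light chain of embryonic and atrial muscle, had 589 to 1727 reads per mouse and a level of 4.52 ± 1.00 RPKM (SD, n = 11), next to that of Myl12b. That rank depends on the length used. With the length of the canonical transcript, the mean level was 30.6 RPKM for Myl4 and 16.7 RPKM for Myl12b. Myl4 took 97.9% of the 11125 sarcomeric light chain reads. Myl7, the atrial regulatory light chain, had 227 reads spread over 8 mice, at most 73 in a mouse, and Myl1 and Myl3 had 3 reads and 1 read. No window of 50 bases of the canonical Myl4 transcript was found elsewhere in the genome or in transcripts of other genes. Of the genes of cardiac muscle, Tnni3 and Myl2 were at 0 in every mouse and Myh6 had 2 reads, both in mouse 3, whereas the cardiac troponin Tnnt2 had 37 to 181 reads in 7 mice and the giant sarcomere protein gene Ttn 2 to 191 in every mouse. Tnnt2 was at 0 in mice 2, 5, 6 and 7, where Myl4 had 675 to 1261 reads. The summed nonmuscle and smooth muscle light chain level stood above the sarcomeric one by 5.94 ± 0.359 on the log2 scale (SD, n = 11), with a range of 5.35 to 6.41.

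**Figure D2:**
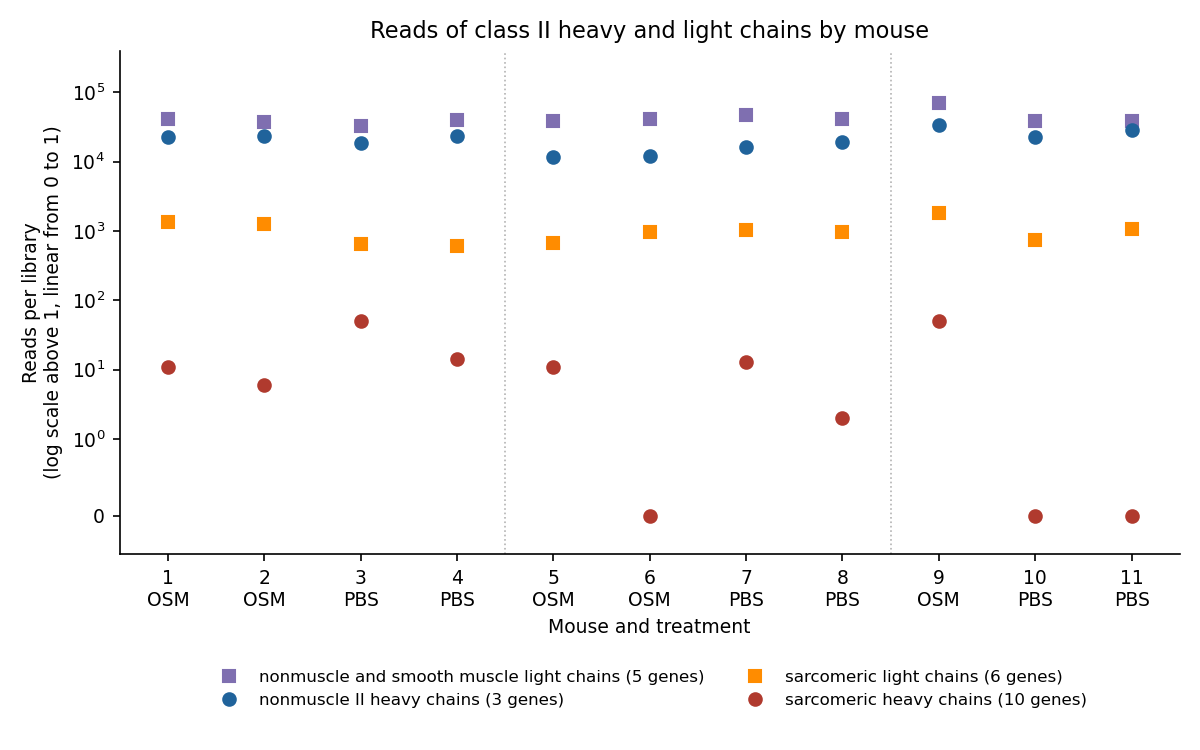
Reads per library (log axis above 1, linear from 0 to 1) of the nonmuscle II heavy chains, the nonmuscle and smooth muscle light chains, and the sarcomeric heavy and light chains, for each mouse with its treatment; dotted lines part the 3 litters. Sarcomeric heavy chains lie between 0 and 51 reads, whereas sarcomeric light chains, nearly all Myl4, lie between 612 and 1800.

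The unconventional myosins were led by class I and Myo10. The class I genes, motors that tether membranes to actin, took 32.4% of all member reads. The nonmuscle and smooth muscle light chains took 31.6% and the nonmuscle II heavy chains 15.7%. These shares are not divided by length, so they favor genes with long transcripts and do not compare levels. Per length, the summed light chains had a mean of 286 RPKM and the summed nonmuscle II heavy chains 48.2 RPKM. Among the class I genes Myo1c, which takes part in exocytosis, had 38.4 ± 9.39 RPKM, Myo1e, a motor of endocytosis and cell adhesions, 19.8 ± 4.47 RPKM and Myo1d 13.8 ± 2.83 RPKM (SD, n = 11 each). Myo10, which moves to the tips of filopodia and carries integrins there, had 44.8 ± 7.30 RPKM. Myo6, the motor that moves towards the minus end of actin and serves endocytosis, had 9.11 ± 2.66 RPKM, Myo18a, which joins nonmuscle II filaments and binds the Golgi, 7.40 ± 1.41 RPKM, and Myo9b, whose tail inactivates a small GTPase, 3.40 ± 1.08 RPKM. In the order of levels per length, Myo10, Myl9 and Myo1c, Myh9 and Myo1e, Myo6 and Myo18a, and Myl4 and Myl12b were neighbors whose mean log2 ratio within a mouse was smaller than its SD over the 11 mice, as was every neighboring pair from Myo9b downwards. The other neighbors among the 15 highest held their order in at least 10 of 11 mice.

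Several unconventional myosins were read in some mice and nearly missing in others. Myo7a, the motor of stereocilia and pigment epithelium, had 3 reads in mouse 1 and 910 in mouse 9, the deepest library. Myo5a, a vesicle transporter, had 0 to 814 reads, the most also in mouse 9. As normalized counts, Myo7a ran from 2.92 in mouse 1 to 864 in mouse 10, and Myo5a from 0 in mouse 5 to 523 in mouse 11. Myo1f, a class I motor of hematopoietic cells, had 89 reads in mouse 3 and 168 in mouse 4, and 0 to 6 in each other mouse. These were also the libraries with the most reads of Csf1r, the receptor that marks macrophages and microglia (112 and 203, against 0 to 40), and of Cd68 (86 and 110, against 0 to 15). Myo1g, another hematopoietic class I motor, had 41 reads in mouse 3, 64 in mouse 5 and 0 to 9 elsewhere, where Aif1 had 50, 69 and 0 to 16. Tyrobp had 31, 137 and 127 reads in mice 3, 4 and 5 and 0 to 5 elsewhere, and Itgam had 31 in mouse 3 alone. Fcer1g had 72 and 35 reads in mice 3 and 4, but also 53 in mouse 10, and 0 to 5 in the rest. Other markers followed these mice less: C1qa and C1qb were at 0 in mice 3 and 4 and highest in mouse 5. Cx3cr1 had 3 reads in mouse 3, 112 in mouse 4 and 110 in mouse 11. Ptprc, which encodes CD45, had 22 in mouse 3, 0 in mouse 4 and 0 to 6 in the rest. The sort took CD45- cells, which leaves out cells with CD45 on their surface. All 10 leukocyte markers had reads in some mouse and their sum was highest in mice 4, 3 and 5, at 18.9, 15.5 and 14.8 CPM, against 0.286 to 5.35 CPM in the rest. Their part in the Myo1f and Myo1g reads was not tested.

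No myosin gene was called between OSM and PBS. With litter as a term, 0 of the 22 tested members had an adjusted p under 0.05 by edgeR's quasi-likelihood test (lowest adjusted p 0.9996), as had 0 of all 13742 tested genes (percent called 0). The members with an unadjusted p under 0.05 were Myo18a, Myh9 and Myh10, all lower with OSM. They were 13.6% of the 22, where 4.17% of all genes had such a p, 2.18% in the lower and 1.99% in the higher direction. Without mouse 3 or without mouse 5 such a p was left for 1 member, and without mouse 9 for 0. The log2 fold change was below 0 for 16 of 22 members, against 51.6% of all genes, with a median of -0.15 against -0.01. DESeq2's Wald test, which called 0.763% of the genes it adjusted, called 0 of 34 members as well. Of these 34, 4 had an unadjusted p under 0.05 by this test, namely Myo18a, Myh9, Myh10 and Myo1f. The share of all genes with such a p was not computed. Myo1f did not pass the filter for edgeR, and 89 and 168 of its 266 reads were in PBS-treated mice 3 and 4. Markers of other cell types differed in direction between the treatments, with 0 called. All 10 tested mural markers had a log2 fold change below 0 (median -0.75), of which Pdgfrb had an unadjusted p under 0.05 (log2 fold change -0.55, edgeR, unadjusted p 0.0409). Of 5 tested platelet and erythrocyte markers, 4 lay above 0. The 3 with an unadjusted p under 0.05 were the erythroid genes Alas2, Hba-a1 and Hbb-bs, with log2 fold changes of 1.01 to 1.12. The platelet markers Itga2b (0.48) and Pf4 (-0.04) had no such p. The sum of all 7 markers of this list was 291 to 925 CPM with OSM and 109 to 485 CPM with PBS. The part of these cells in the member values was not tested. In no tested member did the normalized counts of the groups fail to overlap, against 0.488% of all genes.

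Myo18a had normalized counts of 3838, 3790, 4271, 2970 and 2780 in OSM-treated mice 1, 2, 5, 6 and 9. In PBS-treated mice it had 3913 at the lowest, 4681 at the median and 5284 at the highest. Of the OSM-treated mice, only mouse 5 reached into the PBS range. The log2 fold change of Myo18a was -0.40 (SE 0.14), 0.755 times the PBS level, with an unadjusted edgeR p of 0.0159 and an adjusted p of 0.9996. It was -0.27, -0.29 and -0.79 within litters 1, 2 and 3, where litter 3 holds a lone OSM-treated mouse.

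Myh9 had normalized counts of 11773, 11674, 6485, 6631 and 8991 in OSM-treated mice 1, 2, 5, 6 and 9. In PBS-treated mice it had 8067 at the lowest, 11479 at the median and 13397 at the highest. The groups overlapped. Litter 1 was level, its PBS-treated mice 3 and 4 having 11624 and 11334, below both OSM-treated mice, and OSM-treated mouse 9 of litter 3 lay above the PBS-treated mice of litter 2. In litter 2 both OSM-treated mice lay below mice 7 and 8 (8067 and 8872), and in litter 3 mouse 9 lay below mice 10 and 11 (13019 and 13397). The log2 fold change of Myh9 was -0.26 (SE 0.10), with an unadjusted edgeR p of 0.0212 and an adjusted p of 0.9996. Within litters it was 0.03 (SE 0.11), -0.37 (SE 0.11) and -0.55 (SE 0.14), and without mouse 9 it was -0.16 in all.

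Myh10 had normalized counts of 10710, 11349, 7044, 7968 and 11555 in OSM-treated mice 1, 2, 5, 6 and 9. In PBS-treated mice it had 9185 at the lowest, 11520 at the median and 17073 at the highest, the last in mouse 11. Both OSM-treated mice lay below both PBS-treated mice in litters 1 and 2, and in litter 3 mouse 9 lay between mice 10 and 11. The log2 fold change of Myh10 was -0.29 (SE 0.13), with an unadjusted edgeR p of 0.0470 and an adjusted p of 0.9996. The log2 ratio of Myh10 to Myh9 reads in the same mouse, which does not depend on library scaling, was 0.11 ± 0.21 with OSM (SD, n = 5) and 0.12 ± 0.28 with PBS (SD, n = 6). It differed by -0.01 within litters (exact permutation test over 108 splits, two-sided, p = 1), and the sign of this difference turned when mouse 1, 2, 3, 4, 5 or 11 was left out (range 0.00896 to 0.0476 in these cases).

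**Figure D3:**
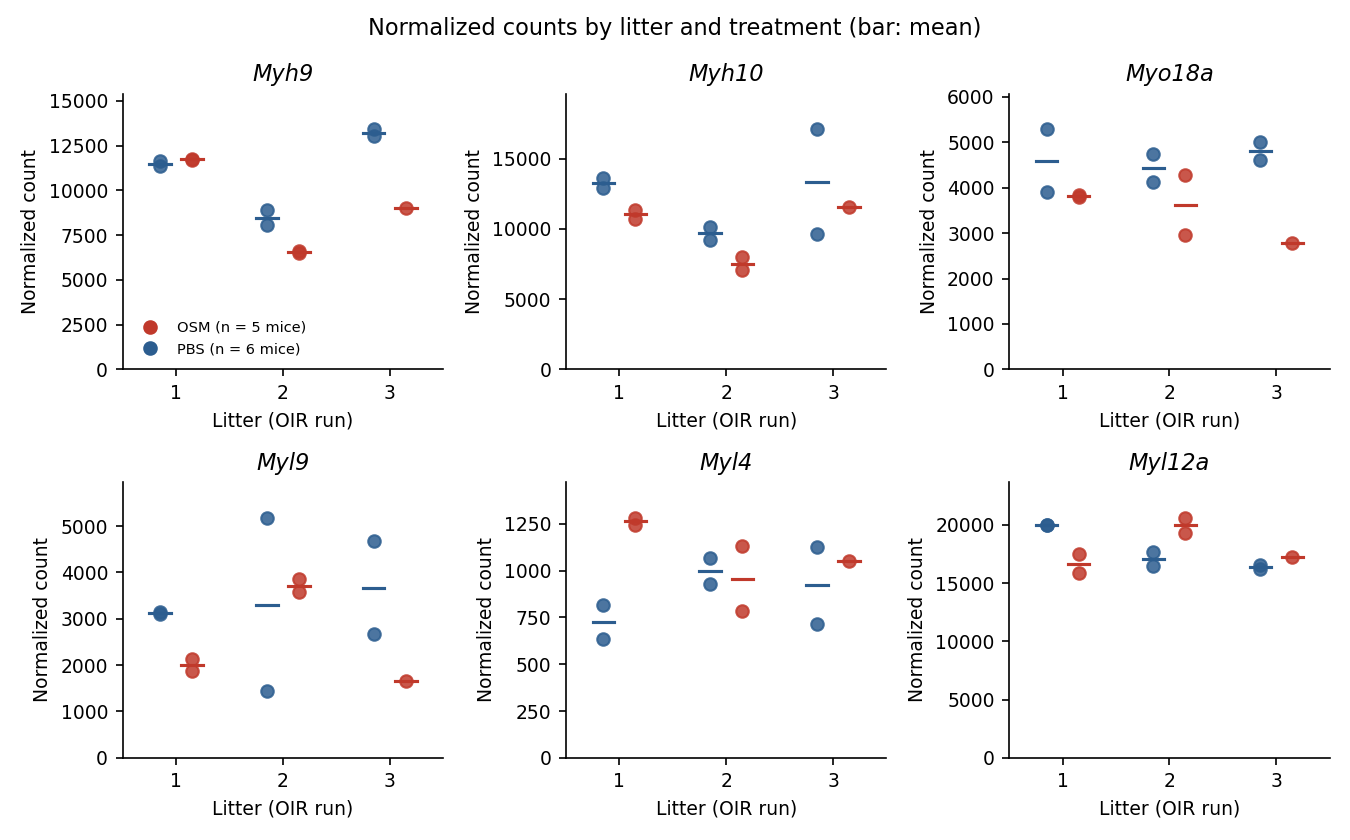
Normalized counts (linear axes from 0) of Myh9, Myh10, Myo18a, Myl9, Myl4 and Myl12a by litter, with a point for each mouse and a bar at the mean of each treatment in a litter. Myh9 is level in litter 1 (11334 to 11773) and lower with OSM in litters 2 and 3, and Myl12a is lower with OSM in litter 1 and higher in litter 2.

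The next in order of p were Myl4, Myl9 and Myo1c, none with an unadjusted p under 0.05. Myl9 had normalized counts of 1879, 2137, 3573, 3863 and 1659 in OSM-treated mice 1, 2, 5, 6 and 9, and in PBS-treated mice 1436 at the lowest, 3121 at the median and 5176 at the highest. The OSM range lay within the PBS range, and the log2 fold change was -0.45 (SE 0.33, edgeR, unadjusted p 0.201, adjusted p 0.9996). It was -0.29 without mouse 7, -0.73 without mouse 8 and -0.22 without mouse 9. The mice with the highest Myl9, 7 and 11, were also those with the highest mural marker sums (1686 and 2187 CPM), and mouse 8 was lowest for both (411 CPM). The mural sum was 604 to 1113 CPM with OSM and 411 to 2187 CPM with PBS, all 11 markers had reads, and Acta2, the smooth muscle actin, had 9 and 48 reads in mice 1 and 2 against 443 to 3640 in the others. Its part in the Myl9 values was not tested. Myl4 had 1281, 1245, 784, 1132 and 1053 normalized counts in OSM-treated mice and 636 to 1128 (median 873) in PBS-treated mice, with a log2 fold change of 0.32 (SE 0.23, edgeR, unadjusted p 0.180), or 0.20 without mouse 4. Myo1c had 12165, 15581, 5453, 9186 and 12296 normalized counts in OSM-treated mice and 9136 to 13875 (median 12597) in PBS-treated mice, with a log2 fold change of -0.21 (SE 0.19, edgeR, unadjusted p 0.296). Its lowest value by far was in mouse 5, without which the log2 fold change was -0.04, and it was -0.10 without mouse 8 and -0.37 without mouse 9.

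**Figure D4:**
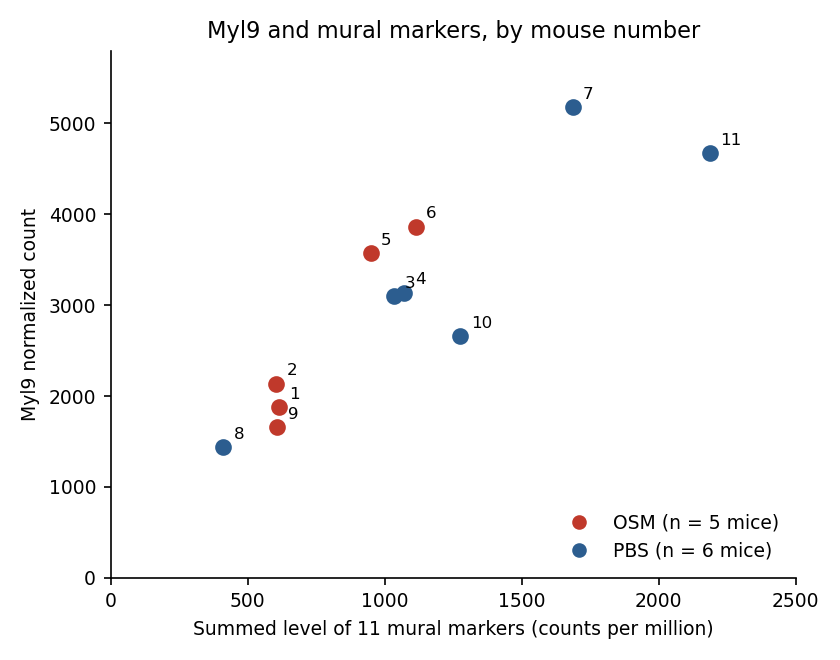
Normalized count of Myl9 (y axis) against the summed level of 11 mural markers in CPM (x axis) for each of the 11 mice, numbered, red for OSM and blue for PBS. Mouse 8 lies lowest on both axes, at 1436 and 411, and mice 7 and 11 lie highest.

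Several of the most abundant members had estimates near 0. The log2 fold change was 0.07 (SE 0.08) for Myl6, 0.00 (SE 0.09) for Myl12a, 0.11 (SE 0.15) for Myl12b and -0.01 (SE 0.12) for Myo10. For Myo1e, Myo1d, Myo6 and Myo9b it lay between -0.15 and -0.13 with an SE of 0.18 to 0.26. The 6 members with few or uneven reads (Myl6b, Myl7, Myo1h, Myo5a, Myo7a and Myo19) had SEs of 0.883 to 2.31 on the log2 scale, so that differences of a few fold were not detectable in them.

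Within single litters, the same edgeR fit with a mean for each litter and treatment called 0 members (lowest adjusted p 0.232, for Myh9 in litter 3) and 0 of 13742 genes in each litter. At an unadjusted p under 0.05 there were 2 members in litter 1, 3 in litter 2 and 4 in litter 3, against 3.06%, 6.59% and 9.53% of all genes. The log2 fold change had the same sign in all 3 litters for 6 of 22 members (25.3% of all genes), and it was below 0 in all 3 for 5 (13.6% of all genes): Myh10, Myo18a, Myo1e, Myo19 and Myl6b. The test of a treatment effect that differs between litters called 0 members and 0 genes (lowest adjusted p of a member 0.556). In this test 2 of the 22 members (9.09%) had an unadjusted p under 0.05, against 7.65% of all genes. By edgeR these were Myh9 (unadjusted p 0.0193, adjusted p 0.556) and Myl12a (unadjusted p 0.0249, adjusted p 0.577). Myl12a had 17468 and 15850 normalized counts in OSM-treated and 19975 and 20010 in PBS-treated mice of litter 1, and 19306 and 20592 against 17642 and 16498 in litter 2. Its log2 fold change was -0.26 (SE 0.10) in litter 1, 0.22 (SE 0.10) in litter 2 and 0.08 (SE 0.13) in litter 3.

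**Figure D5:**
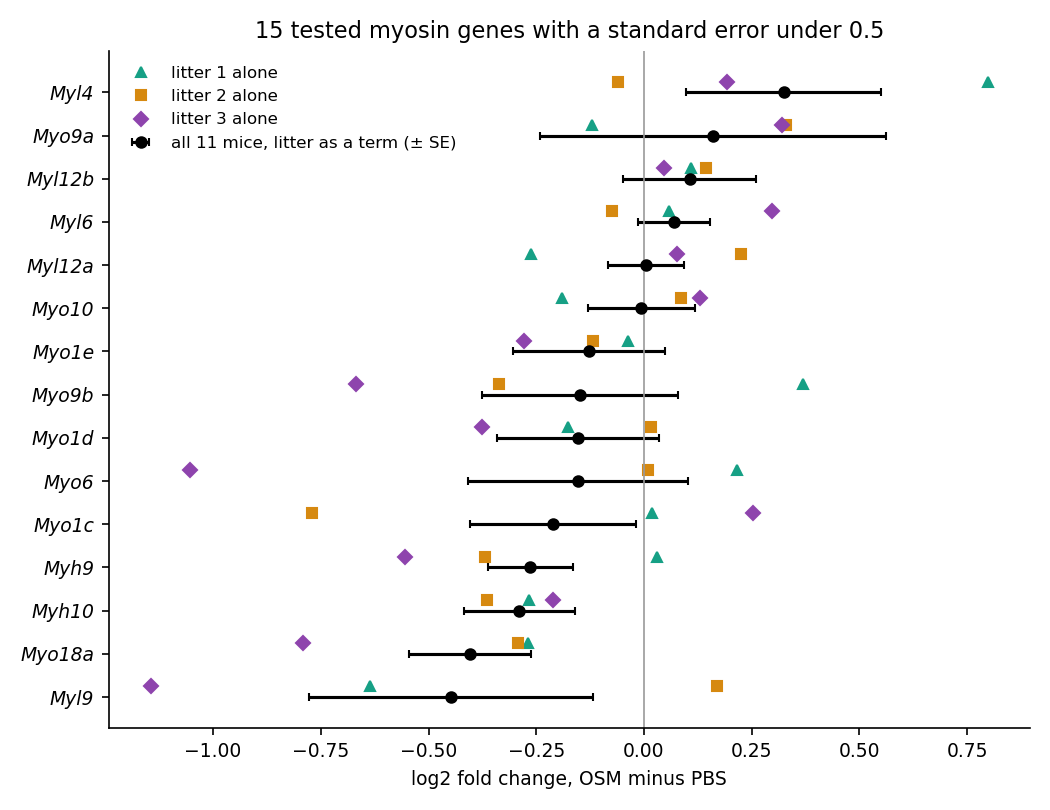
Log2 fold change of OSM minus PBS for 15 tested myosin genes with a standard error under 0.5; black points with bars are the fit on all 11 mice with litter as a term ± SE, and the colored markers are the values within litters 1, 2 and 3. The black points run from -0.45 for Myl9 to 0.32 for Myl4, and only for Myh10, Myo18a, Myo1e and Myl12b do the 3 litters lie on the same side of 0.

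Between litters, the nonmuscle II heavy chains were lowest in litter 2. Myh9 had 11601 ± 189 normalized counts in litter 1 (SD, n = 4), 7514 ± 1153 in litter 2 (n = 4) and 11802 ± 2442 in litter 3 (n = 3), and all mice of litter 2 lay below all others. The log2 difference of litter 2 from litter 1 was -0.64 (SE 0.11) and that of litter 3 from litter 2 was 0.60 (SE 0.12). The litter term called 0 of 22 members by edgeR, where it called 0.102% of all genes, and Myh9 came closest (unadjusted p 0.000273, adjusted p 0.0695). DESeq2's likelihood ratio test of the litter term, which called 7.11% of the genes it adjusted, called 3 members: Myh9 (adjusted p 6.4e-06), Myl6 (adjusted p 0.020) and Myh10 (adjusted p 0.036). By edgeR, 4 members had an unadjusted p under 0.05 for the litter term (Myh9, Myh10, Myl6 and Myo9b), against 11.4% of all genes.

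Myh10 had 12147 ± 1352, 8588 ± 1363 and 12763 ± 3851 normalized counts in litters 1, 2 and 3, with a log2 difference of -0.51 (SE 0.15) between litters 2 and 1. Myl6 went the other way, with 18252 ± 908, 23382 ± 2332 and 19708 ± 2424 normalized counts and a log2 difference of 0.36 (SE 0.10) between litters 2 and 1. Every mouse of litter 2 lay above every mouse of litter 1 for Myl6, and below for Myh10. Photoreceptor markers summed to 613 to 5017 CPM in litter 2 and to 177 to 1370 CPM in the other litters, platelet and erythrocyte markers to 430 to 925 CPM and 109 to 496 CPM, and endothelial markers to 14400 to 17621 CPM and 15349 to 19013 CPM. The part of other cell types in the litter differences was not tested.

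The kinases, phosphatases, adaptors and actin genes that work with myosins were read from the same fit. Of 46 genes, 45 were tested, and edgeR called 0. The estimate was below 0 for 27 and above 0 for 18, and its median was -0.04 on the log2 scale. The light chain kinases and the small GTPase signaling genes above them had a median of -0.18 (11 of 16 lower), the myosin phosphatase genes -0.18 (4 of 6 lower), the actin, tropomyosin and actinin genes -0.09 (6 of 9 lower) and the cargo adaptors 0.07 (3 of 8 lower). Of the 45 genes, 4 had an unadjusted p under 0.05 (8.89%, against 4.17% of all genes). The lowest were Racgap1, which acts on small GTPases at the cytokinetic furrow, with a log2 fold change of -0.56 (SE 0.17, edgeR, unadjusted p 0.00770), Optn, an adaptor of Myo6, with 1.05 (SE 0.35, unadjusted p 0.0116), and Cdc42bpb, a kinase that acts on light chain phosphorylation, with -0.65 (SE 0.24, unadjusted p 0.0204). Optn had normalized counts of 593, 541, 870, 514 and 966 in OSM-treated mice and 151 to 604 in PBS-treated mice, where mouse 11 alone lay above the lowest OSM-treated mouse. Among the most abundant genes of these lists per length were Actb, with a log2 fold change of 0.03 (SE 0.09), and Tpm4, a tropomyosin, with -0.02 (SE 0.08).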

How the data were processed

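The deposited counts are unnormalized whole reads per gene for each of the 11 mice. Per the labels and the study's methods, poly(A)-primed cDNA was amplified by PCR, sequenced as single reads, aligned to GRCm39 with STAR and counted with featureCounts on GENCODE genes. Reads have no molecular identifiers, so PCR copies of a molecule cannot be told apart. The intervals therefore cover the counting error of reads only, not that of molecules, and can be too narrow. GENCODE vM39 gave symbols, positions and lengths.

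All 55359 genes were fitted in edgeR 4.0.16 (R 4.3.3) with TMM, filterByExpr by treatment (count minimum 10, 13742 genes kept), a robust quasi-likelihood fit with litter and treatment as terms, and Benjamini-Hochberg adjustment over all genes kept, with a threshold of 0.05. Normalized counts are scaled to the mean library. The edgeR p-values weigh an estimate against the spread between mice that the terms of the model leave. DESeq2 1.42.0 was an alternative. The steps were tested on simulated data. Alternatives were other scalings, filters and lengths, no litter term, no robust estimation, and leaving out mice or litters. A filter by the design matrix, canonical lengths and leaving out mice 3 and 5 together were added after seeing the data.

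The members and lists were chosen with earlier results of these data known. Genes named with values were all nonmuscle heavy and light chains, the 8 highest unconventional myosins, those with the lowest p for treatment (6), litter (3) or interaction (2), any called member, the 5 sarcomeric genes with the most reads, and 3 pathway genes by p and 3 by level. Of these, 1 unconventional myosin and 1 pathway gene are counted in the totals and not reported here. Other members named for uneven reads were chosen after their values were seen.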

Additional observations from a re-analysis of the deposited data

Results flagged for a closer look

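Of 44 sets of values (22 tested members in 2 treatments), 2 held a mouse far from the others of its group, which is about what chance gives (1 set in 20). Myo1d had 2055 normalized counts in mouse 7, the lowest of the 6 PBS-treated mice, where the next was 3446. Myl12b had 1774 normalized counts in mouse 1, the highest of the 5 OSM-treated mice, where the next was 1288.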

How the results depend on the processing

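Between OSM and PBS, 0 members were called in each of the 22 alternatives, and 0 had a called interaction in both alternatives of that test. Myh9 and Myh10 kept a negative sign in all 22 alternatives, with log2 fold changes from -0.44 to -0.16 and from -0.36 to -0.20. The litter term called 2 members (Myh9, adjusted p 0.00145, and Myh10, 0.0193) in edgeR without a filter and 3 with DESeq2's likelihood ratio test (Myh9, Myl6 and Myh10). Over all 17 alternatives the adjusted p of Myh9 ran from 6.4e-06 to 0.256. The cause was not tested. The nonmuscle over sarcomeric light chain difference moved to 5.13 with the longest transcript, 5.45 without length and 5.14 with the canonical transcript. For the heavy chains it was 10.4 on average, with a sum below 3 reads held at 3 reads in 4 mice. Over all genes, the calls between OSM and PBS were 0 in edgeR, 65 without a filter and 168 with DESeq2. Those of the litter term were 14, 625 without a filter, 995 with DESeq2, 26 without the treatment term, 3 with the filter by the design matrix and 0 to 69 with a mouse left out, and those of the interaction were 0, and 305 without a filter.

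Signs were followed over the alternatives only for the members chosen to be named with values. Among these, signs turned only in members with small or imprecise changes. Leaving out a mouse gave -0.0843 to 0.0683 for Myo10, -2.33 to 0.313 for Myl7, -0.0417 to 0.0676 for Myl12a, -0.289 to 0.0253 for Myo9b, -0.291 to 0.120 for Myo6, and -0.148 to 0.0476 for the Myh10 to Myh9 ratio. Without litter 1, Myo10 was 0.102. Without litter 2, Myl7 was 1.13, Myo1c 0.114 and Myl12a -0.125. Without litter 3, Myo9b was 0.0247, Myo6 0.119, Myl6 -0.000610 and Myl12a -0.0115. Myl7 was 0.210 without the litter term, and 0.00995 without mice 3 and 5, where Myo10 was 0.0140. No paired analysis was possible because the mice carry numbers that no other mouse shares, and litter was a term in the model.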

Other observations

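Unc45b, the myosin chaperone of striated muscle, was read in every mouse, at 504 to 1130 normalized counts and 2.40 RPKM, although the sarcomeric heavy chains were nearly absent. Unc45a, its general counterpart, had 6.66 RPKM. Both were chosen after their values were seen, and the log2 fold changes of OSM minus PBS were -0.06 (SE 0.24) and -0.29 (SE 0.20), with 0 calls. Mylk, the light chain kinase, ran from 169 normalized counts in mouse 1 to 1046 in mouse 3. The OSM mean of Mylk was 399 and the PBS mean 733, with a log2 fold change of -0.82 (SE 0.56, edgeR, unadjusted p 0.171).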
